A study of Mus musculus with 4 samples.

Results

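A set of 8 genes of the p53 circuit was followed in MC38, a mouse colon cancer cell line, after 5-fluorouracil (5-FU). They were Trp53, Mdm2, Mdm4, Usp7, Ppm1d, Cdkn1a, Ccng1 and Rps27l, taken by gene symbol as 8 of the 36445 genes in the deposited table. All 8 were present once, and all 8 passed the filter on low values (1 FPKM or more in 2 or more libraries), which left 11644 genes. The 5-FU group was MC38 cells given 5-FU at 1 mM for 24 h (2 libraries), and the PBS group was MC38 cells given PBS for the same 24 h (2 libraries). Polyadenylated RNA of both groups was sequenced, and the values are FPKM, in which the fragments of a gene are divided by its length and by the depth of the library. 5-FU is a pyrimidine analogue whose metabolites inhibit thymidylate synthase and are built into RNA and DNA. The labels do not give the p53 genotype of these cells, nor whether the replicates were separate cultures, so every p-value here is set against a spread that may be technical.

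p53, encoded by Trp53, is a transcription factor held at low protein level by the ubiquitin ligase Mdm2, whose own gene p53 activates, which closes a feedback loop. Mdm4 is a relative of Mdm2 that binds p53 and blocks its transactivation domain, and Usp7 is a deubiquitinase that removes ubiquitin from both p53 and Mdm2. Ppm1d, Cdkn1a, Ccng1 and Rps27l are textbook p53 target genes. Their products are the phosphatase Wip1, which turns p53 signalling down, the CDK inhibitor p21, cyclin G1, which directs a phosphatase to Mdm2, and a ribosomal protein paralog that binds Mdm2. Most control of p53 itself acts on the protein, which was not measured here.

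Estimated depth was 20.8 and 20.6 M reads in the 5-FU libraries and 41.3 and 41.6 M reads in the PBS libraries. The PBS pair differed more (median absolute log2 difference 0.27 over 11644 genes) than the 5-FU pair (0.07), so depth and replicate spread both moved with the group, and their part in the results was not tested. The label colon cancer was set against markers: all 9 epithelial markers (Epcam, Cdh1 and keratins among them) stayed below 1 FPKM in every library, with sums of 1.87 and 1.74 FPKM in 5-FU and 0.78 and 1.53 FPKM in PBS. The mesenchymal marker Vim measured 1069 and 1036 FPKM in 5-FU and 973 and 890 FPKM in PBS, and 6 of 8 fibroblast and mesenchymal markers reached 1 FPKM in a library. The other markers of that list were far lower and did not all run the same way. Pdgfra measured 5.42 and 5.07 FPKM in 5-FU and 10.4 and 18.5 FPKM in PBS, Pdgfrb 0.596 and 0.558 FPKM in 5-FU and 2.35 and 5.07 FPKM in PBS, and Col3a1 10.5 and 10.4 FPKM in 5-FU and 12.5 and 13.3 FPKM in PBS. Col1a1 and Dcn were at most 1.35 FPKM, Acta2 at most 0.653 FPKM and Col1a2 at most 0.147 FPKM. Of 10 leukocyte markers, Cd68 and Lyz2 alone reached 1 FPKM, and Ptprc stayed at or below 0.0342 FPKM.

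After 5-FU, Trp53, Mdm2 and Rps27l were higher, Mdm4, Cdkn1a and Usp7 were lower, and Ppm1d and Ccng1 did not pass the test. The test was limma on log2(FPKM + 1) over all 11644 genes, with a Benjamini-Hochberg adjusted p under 0.05 as the threshold. Of all tested genes, 53.3% passed in either direction, 22.1% higher and 31.2% lower, so 6 calls among 8 genes is a share to be read against a high background. In all 8 genes the 5-FU libraries lay on one side of both PBS libraries, 5 genes higher and 3 lower, which held for 81.0% of all tested genes (35.9% higher, 45.1% lower). The plot of levels by library shows these values.

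**Figure D1:**
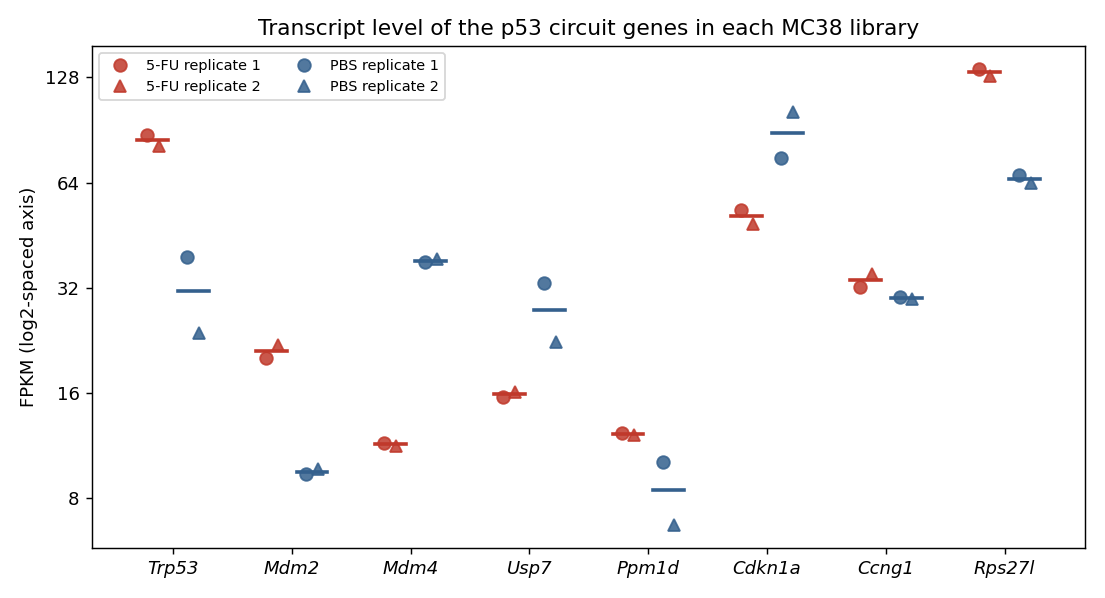
FPKM of each gene (log2-spaced vertical axis) in the 2 5-FU libraries (red, left) and the 2 PBS libraries (blue, right); circles are replicate 1, triangles replicate 2 and bars the group mean. Trp53, Mdm2 and Rps27l lie higher in 5-FU, Mdm4, Usp7 and Cdkn1a lie lower, and the PBS replicates of Trp53, Usp7, Ppm1d and Cdkn1a stand well apart.

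The regions just upstream of 3 p53 target genes are shown because these genes moved differently under 5-FU: Mdm2 was higher, Cdkn1a lower, and Ccng1 did not pass. Each is 250 bases before to 50 bases after a RefSeq start site (GRCm38.p6), read 5′ to 3′ on the gene's strand. Exact matches to the p53 half-site consensus are in capitals, and stretches with any mismatch are not marked. That consensus reads the same on both strands. The Mdm2 window is chr10:117710709-117711008 on the minus strand, the Cdkn1a window, at the more upstream of its start sites, is chr17:29090729-29091028 on the plus strand, and the Ccng1 window is chr11:40755237-40755536 on the minus strand.
Mdm2: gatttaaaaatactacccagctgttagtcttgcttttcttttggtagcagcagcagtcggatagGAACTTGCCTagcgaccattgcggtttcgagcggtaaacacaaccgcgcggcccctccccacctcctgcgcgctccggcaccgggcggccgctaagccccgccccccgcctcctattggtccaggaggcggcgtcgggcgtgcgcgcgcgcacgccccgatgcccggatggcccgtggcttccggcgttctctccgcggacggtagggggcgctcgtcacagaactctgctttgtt
Cdkn1a: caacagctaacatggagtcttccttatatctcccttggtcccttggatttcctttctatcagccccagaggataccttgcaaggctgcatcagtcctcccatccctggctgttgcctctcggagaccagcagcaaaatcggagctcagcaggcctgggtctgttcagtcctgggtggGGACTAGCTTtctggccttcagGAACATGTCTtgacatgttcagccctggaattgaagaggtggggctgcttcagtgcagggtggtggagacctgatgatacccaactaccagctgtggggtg
Ccng1: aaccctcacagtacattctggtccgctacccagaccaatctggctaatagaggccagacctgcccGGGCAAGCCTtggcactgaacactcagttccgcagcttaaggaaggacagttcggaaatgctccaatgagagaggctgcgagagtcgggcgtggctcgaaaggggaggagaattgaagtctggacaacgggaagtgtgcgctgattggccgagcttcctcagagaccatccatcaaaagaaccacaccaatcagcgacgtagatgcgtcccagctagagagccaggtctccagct
The Cdkn1a window shown held 2 exact matches separated by no more than 13 bases, found in 24 of 32841 promoter windows (0.0731%). That share counts exact matches only and leaves out pairs with a mismatch. In this window the stretch directly after the second match differs from the consensus at 1 base and was not counted. The window at the more downstream Cdkn1a start site (chr17:29093519-29093818, not shown) held no exact match. Single exact matches stood in the Mdm2 and Ccng1 windows. In the Ccng1 window the stretch directly before the match differs from the consensus at 1 base and was not counted. A lone match here is therefore not a lone half-site. At least 1 exact half-site match was present in a window of 6 of the 8 genes (6 of 11 windows) and in 8.36% of all windows. These matches describe letters within a short window, and p53 binding was not measured. The known p53-responsive promoter of Mdm2 lies in an intron, outside the window shown.

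Trp53 (ENSMUSG00000059552, GRCm38 chromosome 11, 69580359 to 69591873, plus strand) measured 87.3 and 81.7 FPKM in 5-FU and 39.0 and 23.7 FPKM in PBS. Both 5-FU libraries exceeded the higher PBS library more than the PBS libraries were spread, and the PBS libraries were far from each other. The means were 84.5 ± 3.99 FPKM in 5-FU and 31.3 ± 10.9 FPKM in PBS (SD, n = 2 each), a ratio of 2.70. The log2 difference was 1.44 (SE 0.252, 95% interval 0.78 to 2.11, limma adjusted p = 0.0106). Without PBS replicate 1 it was 1.79 and without PBS replicate 2 it was 1.09, and it passed without any 1 of the 4 libraries. By rank, Trp53 stood above 93.5% and 93.1% of tested genes in the 5-FU libraries and above 85.8% and 76.2% in the PBS libraries. The other members of the p53 family were close to 0: Trp63 was at most 0.0343 FPKM and Trp73 at most 0.00868 FPKM in any library.

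Mdm2 (ENSMUSG00000020184, chromosome 10, 117688875 to 117710758, minus strand) measured 20.2 and 21.96 FPKM in 5-FU and 9.35 and 9.65 FPKM in PBS. Here the replicates of both groups were close and the groups were well separated. Mean levels were 21.1 ± 1.27 FPKM in 5-FU and 9.50 ± 0.216 FPKM in PBS (SD, n = 2 each), 2.22 times as high in 5-FU. Its log2 difference was 1.07 (95% interval 0.76 to 1.38, limma adjusted p = 0.00422). Leaving out 5-FU replicate 2 gave 1.01 at adjusted p = 0.0592, which ended the call.

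Mdm4 (ENSMUSG00000054387, chromosome 1, 132959484 to 133030561, minus strand) measured 11.5 and 11.3 FPKM in 5-FU and 38.0 and 38.5 FPKM in PBS. The replicates lay close together in both groups, and the groups were far apart. The PBS mean was 3.36 times the 5-FU mean (11.4 ± 0.144 FPKM in 5-FU and 38.2 ± 0.388 FPKM in PBS, SD, n = 2 each). The log2 difference was -1.66 (95% interval -1.94 to -1.39, limma adjusted p = 0.0027), and the call held in all 15 alternative settings. Mdm4 spans 71078 bases, and the 1827 tested protein-coding genes within 1.5 times of that span had a median log2 difference of -0.40, with 44.0% called lower. With the trend with gene span removed, Mdm4 was at -1.24 on the log2 scale (adjusted p = 0.00372).

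Usp7 (ENSMUSG00000022710, chromosome 16, 8689595 to 8792308, minus strand) measured 15.5 and 16.1 FPKM in 5-FU and 32.9 and 22.4 FPKM in PBS (means 15.8 ± 0.437 in 5-FU and 27.7 ± 7.42 in PBS, SD, n = 2 each). Both 5-FU libraries were below both PBS libraries, which themselves differed by more than the lower PBS library differed from the 5-FU libraries. The log2 difference was -0.75 (95% interval -1.29 to -0.20, limma adjusted p = 0.0362). The call was lost without 5-FU replicate 1 (-0.72, adjusted p = 0.156) and without 5-FU replicate 2 (-0.77, adjusted p = 0.135), at differences of about the same size. The value was -0.48 without PBS replicate 1, a call that still passed. Usp7 spans 102714 bases, and the 1346 tested protein-coding genes of like span had a median log2 difference of -0.52, with 50.2% called lower. With the span trend removed, the difference was -0.24 (adjusted p = 0.381).

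Ppm1d (ENSMUSG00000020525, chromosome 11, 85311244 to 85347066, plus strand) measured 12.2 and 12.1 FPKM in 5-FU and 10.1 and 6.69 FPKM in PBS (means 12.2 ± 0.0873 in 5-FU and 8.39 ± 2.41 in PBS, SD, n = 2 each). Its values correspond to 809 and 793 reads in 5-FU and 1324 and 883 reads in PBS, whole numbers within 0.02. Counting error was at most 3.55% of a value, well below the gap between the PBS libraries. A log2 difference of 0.51 had a 95% interval of -0.04 to 1.06 (limma adjusted p = 0.0978), an interval that holds both 0 and a doubling. It passed, higher, in 5 of 15 alternative settings. Among them were median-ratio scaling (0.63, limma adjusted p = 0.0416), quantile normalization (0.73, adjusted p = 0.0367) and removal of the span trend (0.73, adjusted p = 0.0419). The other settings were the fits without a PBS library, where the share called rose over all genes. Without PBS replicate 2 the value was 0.25 and without PBS replicate 1 it was 0.78.

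**Figure D2:**
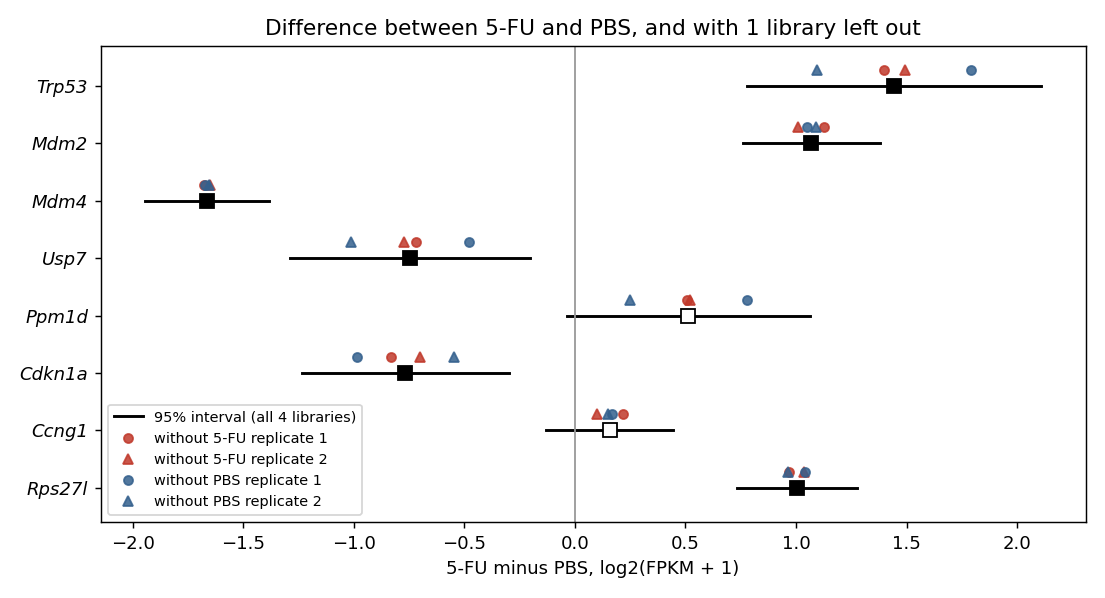
Difference of each gene between 5-FU and PBS on the log2(FPKM + 1) scale (horizontal axis); squares show the fit of all 4 libraries (filled where adjusted p was under 0.05) with the 95% interval, and small symbols the value with 1 library left out. Mdm4 lies furthest to the left, at -1.66, and hardly moves with the library left out, while Trp53, Usp7, Ppm1d and Cdkn1a move most with the PBS library left out.

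Cdkn1a (ENSMUSG00000023067, chromosome 17, 29090976 to 29100727, plus strand) measured 53.5 and 48.8 FPKM in 5-FU and 75.2 and 102 FPKM in PBS (means 51.2 ± 3.30 in 5-FU and 88.6 ± 19.0 in PBS, SD, n = 2 each). The 5-FU libraries were both lower than both PBS libraries, opposite in direction to Mdm2 and Rps27l. The log2 difference was -0.77 (95% interval -1.24 to -0.30, limma adjusted p = 0.0229). It did not pass without 5-FU replicate 1 (-0.83, adjusted p = 0.0886), without 5-FU replicate 2 (-0.70, adjusted p = 0.139) or with no filter on low values (-0.77, adjusted p = 0.073), again at differences of about the same size. Without PBS replicate 2 the value was -0.55 and without PBS replicate 1 it was -0.98. Of its exonic bases, 273 (7.68%) overlap AC167363.2, a GENCODE gene model on the opposite strand. The sources used here give no strand setting, so reads of the overlap cannot be told apart.

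Ccng1 (ENSMUSG00000020326, chromosome 11, 40748552 to 40755311, minus strand) measured 32.1 and 35.0 FPKM in 5-FU and 30.1 and 29.7 FPKM in PBS (means 33.5 ± 2.06 in 5-FU and 29.9 ± 0.291 in PBS, SD, n = 2 each). These values are 2346 and 2534 reads in 5-FU and 4372 and 4341 reads in PBS, again whole numbers. The groups did not overlap, but the gap was small against the spread of the 5-FU pair. The log2 difference was 0.16 with a 95% interval of -0.13 to 0.45 (limma adjusted p = 0.271), and it passed in none of 15 alternative settings, where the adjusted p lay between 0.0686 and 0.833.

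Rps27l (ENSMUSG00000036781, chromosome 9, 66946086 to 66949516, plus strand) had the highest level of the 8 genes in 5-FU, at 136 and 129 FPKM, against 67.4 and 63.8 FPKM in PBS (means 133 ± 4.30 in 5-FU and 65.6 ± 2.56 in PBS, SD, n = 2 each). Its values are 2304 and 2179 reads in 5-FU and 2275 and 2167 reads in PBS. The read numbers are thus alike in both groups, at about 2 times the depth in PBS. The 5-FU mean was 2.02 times the PBS mean, with a log2 difference of 1.00 (95% interval 0.73 to 1.27, limma adjusted p = 0.00386), and the call held in all 15 alternative settings.

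Reads of a ribosomal protein gene may be shared with its copies, so the coding sequence of Rps27l is set against that of its paralog Rps27, with the bases that differ in capitals. Both are from GENCODE M21 transcripts on GRCm38, Rps27l on chromosome 9 and Rps27 on chromosome 3 (90212522 to 90213651, minus strand).
Rps27l: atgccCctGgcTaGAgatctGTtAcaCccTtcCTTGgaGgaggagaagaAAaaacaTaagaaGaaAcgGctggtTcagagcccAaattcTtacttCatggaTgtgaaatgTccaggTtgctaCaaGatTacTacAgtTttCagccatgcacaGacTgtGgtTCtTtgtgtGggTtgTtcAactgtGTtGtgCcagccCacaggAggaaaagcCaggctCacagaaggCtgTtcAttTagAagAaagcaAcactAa
Rps27: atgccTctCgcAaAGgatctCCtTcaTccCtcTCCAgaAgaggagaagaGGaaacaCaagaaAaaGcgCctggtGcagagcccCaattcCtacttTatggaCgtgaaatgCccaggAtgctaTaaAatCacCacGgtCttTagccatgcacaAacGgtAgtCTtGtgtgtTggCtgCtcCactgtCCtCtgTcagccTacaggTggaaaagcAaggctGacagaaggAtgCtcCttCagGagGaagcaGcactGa
Of 255 coding bases, 61 differed (76.1% identity), and the longest identical run was 11 bases, so no stretch of 50 coding bases was common to both. Rps27 measured 2115 and 1931 FPKM in 5-FU and 1385 and 1727 FPKM in PBS, and did not pass (log2 difference 0.39, 95% interval -0.06 to 0.83, limma adjusted p = 0.115). The ratio of Rps27l to Rps27 within a library was 0.0641 and 0.0671 in 5-FU and 0.0487 and 0.0369 in PBS. Over all annotated transcripts, 11.2% of the 50-base stretches of Rps27l recurred in 4 other genes, foremost the pseudogene Gm14706, which measured at most 0.565 FPKM. For Mdm4 the share was 7.31%, nearly all in the pseudogene Mdm4-ps (at most 0.0258 FPKM). For Trp53 it was 3.95%, mostly in Trp53-ps (0.341 and 0.344 FPKM in 5-FU, listed at 0 in both PBS libraries). For Cdkn1a the share was 8.49%, spread over 584 other genes and mostly in AC167363.2, for which no value is given here. For Mdm2 it was 1.32%, over 985 other genes, and most of it lay in Cltc, an abundant gene at 74.2 and 81.5 FPKM in 5-FU and 90.2 and 107.5 FPKM in PBS. For Usp7 it was 0.538%, in 1 other gene. Ppm1d and Ccng1 shared no such stretch with another gene. No read length is given in the sources used, so 50 bases is a chosen scale.

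The order of the 8 genes by level per transcript length differed between the groups. In 5-FU the order from high to low was Rps27l, Trp53, Cdkn1a, Ccng1, Mdm2, Usp7, Ppm1d and Mdm4, and no neighbours overlapped in their 2 libraries. In PBS it was Cdkn1a, Rps27l, Mdm4, Trp53, Ccng1, Usp7, Mdm2 and Ppm1d. There the neighbours Mdm4 and Trp53, Trp53 and Ccng1, Ccng1 and Usp7, and Mdm2 and Ppm1d overlapped in their libraries. Mdm4, the lowest of the 8 in 5-FU, stood above Mdm2 and Ppm1d in PBS.

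Ratios within a library do not depend on scaling between libraries. The ratio of Mdm4 to Mdm2 was 0.57 and 0.514 in 5-FU, against 4.06 and 3.99 in PBS, 7.43 times as high in PBS. In PBS the Mdm4 transcript was therefore the more abundant per length, and in 5-FU the Mdm2 transcript was. The ratio of Mdm4 to Trp53 was 0.132 and 0.138 in 5-FU, against 0.973 and 1.63 in PBS. Cdkn1a to Trp53 was 0.612 and 0.598 in 5-FU, against 1.93 and 4.31 in PBS, 5.16 times as high in PBS by the means. For these ratios the groups did not overlap. The ratio of Mdm2 to Trp53 did overlap, at 0.231 and 0.269 in 5-FU and 0.239 and 0.408 in PBS, and the sign of its change turned without PBS replicate 2. The ratios are given as values and were not tested.

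**Figure D3:**
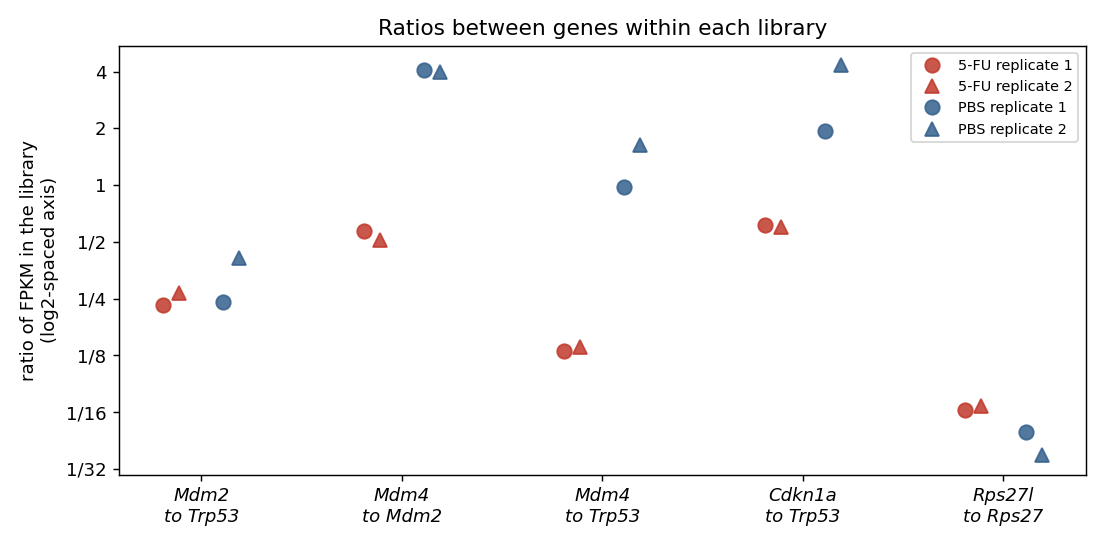
Ratio of the FPKM values of 2 genes within each library (log2-spaced vertical axis), in the 5-FU libraries (red, left) and the PBS libraries (blue, right); circles are replicate 1 and triangles replicate 2. The Mdm4 to Mdm2 ratio lies at 0.57 and 0.514 in 5-FU and at 4.06 and 3.99 in PBS, while the Mdm2 to Trp53 ratios of the groups overlap.

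The surrounding pathway was described from 8 gene lists, each read against the 53.3% called, and the median log2 difference of -0.10, over all tested genes. That 53.3% belongs to the main fit only. Over all genes, the share called fell without a 5-FU library or without a filter on low values, and rose without a PBS library. The list counts under those settings moved along with that background and are not read as traits of a list. Among 19 tested kinases and cofactors that act on p53, 2 were higher and 9 lower, with a median log2 difference of -0.46. The share called was 57.9%, near that of all tested genes. Atr, a kinase that signals stalled replication, fell to 2.08 and 2.36 FPKM in 5-FU, against 11.6 and 11.1 FPKM in PBS (log2 difference -1.94, limma adjusted p = 0.0027). The p53 kinase gene Dyrk2 fell to 1.08 and 1.13 FPKM, against 3.47 and 6.94 FPKM in PBS, and Trp53bp1, which encodes the DNA damage protein 53BP1, fell by 1.29 on the log2 scale. Crebbp, which encodes an acetyltransferase of p53, and Trp53bp2, which encodes the p53-binding protein ASPP2, rose by 1.24 and 1.23. With a 5-FU library left out, 1 was higher and 3 were lower, whichever library it was. Dropping PBS replicate 1 gave 4 higher and 9 lower, and dropping PBS replicate 2 gave 3 and 12. Removal of the span trend gave 3 and 6, and no filter on low values gave 2 and 6. A minimum mean of 5 FPKM gave 2 and 5, but low genes such as Dyrk2 and Trp53bp1 were then not tested.

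Of 16 other ubiquitin ligases, deubiquitinases and repressors of p53, 2 were higher and 3 lower, and 11 did not pass (31.25% called, median -0.27). The ligase gene Topors and the corepressor gene Trim28 were higher, both by 0.81 on the log2 scale, and the ligase genes Ube4b and Stub1 and the deubiquitinase gene Otub1 fell by 0.90, 0.59 and 0.48. With either 5-FU library left out, 0 passed by limma. Dropping PBS replicate 1 gave 4 higher and 7 lower, dropping PBS replicate 2 gave 4 and 8, and testing without a filter gave 1 and 2. At an unadjusted p under 0.05 in limma, 3010 of all 11644 tested genes were higher and 4057 lower. Of 19 tested ribosomal and nucleolar genes whose products bind Mdm2, 5 were higher and 0 lower at that unadjusted p. By limma with adjustment, 3 were higher and 0 lower (15.8% called, median 0.27). The 3 were Gnl3, which encodes nucleostemin (183 and 199 FPKM in 5-FU, against 68.9 and 56.8 FPKM in PBS, log2 difference 1.59, limma adjusted p = 0.00314), Nop53 (0.54) and Rps26 (0.50). Cdkn2a, whose Arf product inhibits Mdm2, measured 3.49 and 2.98 FPKM in 5-FU and 2.83 and 4.58 FPKM in PBS, and its 2 products cannot be told apart at the gene level. The counts of this list moved widely: 1 higher and 0 lower with either 5-FU library left out, 8 and 5 when PBS replicate 1 was dropped, 13 and 1 when PBS replicate 2 was dropped, 6 and 0 after median-ratio scaling, and 1 and 0 after quantile normalization.

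Among 34 further direct p53 target genes, 6 were higher, 12 lower and 16 did not pass (52.9% called, median -0.22), a share close to that of all tested genes. Triap1, an inhibitor of apoptosis, was at 27.7 FPKM in both 5-FU libraries, against 11.6 and 11.04 FPKM in PBS (log2 difference 1.22, limma adjusted p = 0.00327). Sesn2, a stress-induced regulator of mTORC1, rose by 0.96. Sfn, which encodes 14-3-3 sigma, rose by 1.21 at low values, 2.44 and 2.01 FPKM in 5-FU and 0.840 and 0.0596 FPKM in PBS. Ddit4, another mTORC1 inhibitor gene, measured 51.6 and 48.0 FPKM in 5-FU and 180.2 and 341 FPKM in PBS, a log2 difference of -2.29. Trp53inp1, whose product promotes p53-dependent apoptosis, fell by 1.45 at low values, 0.141 and 0.120 FPKM in 5-FU and 1.14 and 3.45 FPKM in PBS. The polo-like kinase gene Plk2 fell by 1.35. The PBS libraries of Ddit4, Trp53inp1 and Plk2 differed from each other, with PBS replicate 2 the higher in each. Perp and Pmaip1 were listed at 0 in all 4 libraries. Dropping 5-FU replicate 1 gave 1 higher and 2 lower, dropping 5-FU replicate 2 gave 1 and 3, dropping PBS replicate 1 gave 11 and 16, and dropping PBS replicate 2 gave 10 and 12. Testing without a filter gave 2 and 6, and removal of the span trend 9 and 11. A minimum mean of 5 FPKM gave 5 and 6, but low genes such as Trp53inp1 and Sfn were then not tested.

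**Figure D4:**
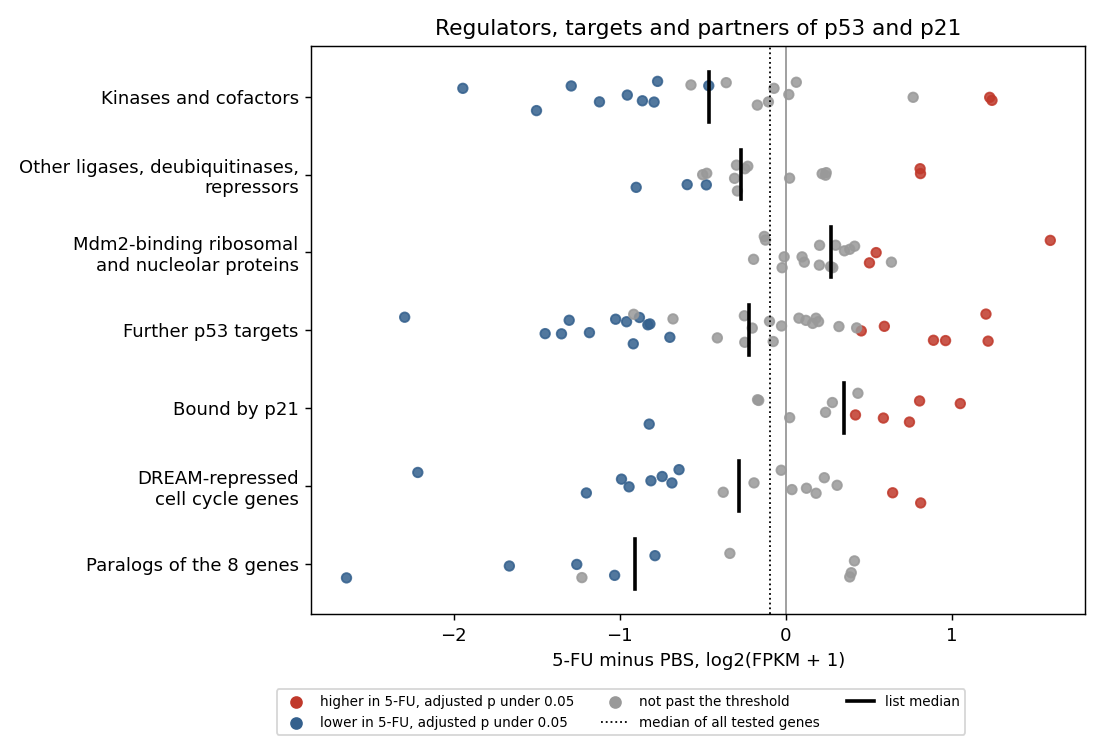
Log2 difference between 5-FU and PBS (horizontal axis) of each tested gene in 7 lists around p53 and p21, with genes called higher in red, lower in blue and the others in grey; thick bars are list medians and the dotted line the median of all tested genes. Paralogs of the 8 genes have a median of -0.91, and genes bound by p21 a median of 0.35.

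p21 acts by binding cyclins, CDKs and PCNA. Of these 12 genes 5 were higher and 1 lower (50% called, median 0.35). Over all tested genes 53.3% were called, 22.1% higher and 31.2% lower, so the share called was near that background. The E-type cyclin genes Ccne2 and Ccne1 rose by 1.05 and 0.81 on the log2 scale, Cdk1 measured 84.0 and 86.1 FPKM in 5-FU and 51.7 and 49.0 FPKM in PBS (log2 difference 0.75, limma adjusted p = 0.00601), and the D-type cyclin gene Ccnd2 fell by 0.82. Of 18 cell cycle genes that p53 and p21 repress through the DREAM complex, 2 were higher and 8 lower (55.6% called, median -0.28). That share, too, was near the background. The B-type cyclin gene Ccnb2, the transcription factor gene E2f1 and the spindle checkpoint kinase gene Bub1 fell by 2.22, 1.20 and 0.99, whereas the mitotic kinase genes Aurka and Plk1 rose by 0.81 and 0.64. Of the genes bound by p21, 0 passed by limma with either 5-FU library left out, 10 were higher and 1 lower when PBS replicate 1 was dropped, 7 and 4 when PBS replicate 2 was dropped, and 2 and 0 when no filter was applied. For the DREAM list, dropping 5-FU replicate 1 gave 0 and 2, dropping 5-FU replicate 2 gave 0 and 3, dropping PBS replicate 1 gave 7 and 8, and dropping PBS replicate 2 gave 2 and 12.

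Of 10 tested paralogs of the 8 genes, 0 were higher and 5 lower (50% called, median -0.91), a list that counts Mdm4 itself as the paralog of Mdm2. At an unadjusted p under 0.05 in limma, 0 paralogs were higher and 7 lower, against 3010 higher and 4057 lower of all 11644 tested genes. Removal of the span trend gave 1 paralog higher. The largest difference was in Cdkn1b, which encodes the CDK inhibitor p27: it measured 4.63 and 5.00 FPKM in 5-FU, against 26.1 and 47.8 FPKM in PBS (log2 difference -2.64, limma adjusted p = 0.0045). Cdkn1c, the remaining gene of that inhibitor family, was at most 0.313 FPKM. Usp47, the closest relative of Usp7, fell by 1.26 and the phosphatase gene Ppm1b by 1.03. Ccng2, the paralog of Ccng1, measured 5.01 and 5.30 FPKM in 5-FU and 8.22 and 21.5 FPKM in PBS and did not pass (adjusted p = 0.0713). With either 5-FU library left out 3 paralogs were lower. Dropping PBS replicate 1 gave 3 higher and 7 lower, and dropping PBS replicate 2 gave 1 and 7.

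The genes whose profile over the 4 libraries lay nearest to a member were found by Euclidean distance between centred log2(FPKM + 1) values among 7386 named genes with a mean of at least 5 FPKM. Nearest to Trp53 were Aggf1, Slc25a38 and Fbxo17 (distances 0.0368, 0.0555 and 0.0791), and Aggf1 measured 28.7 and 26.8 FPKM in 5-FU and 12.2 and 7.42 FPKM in PBS. Nearest to Mdm2 were Wasl, Rfxap and Osr2 (0.0301, 0.0523 and 0.0653). Nearest to Cdkn1a were Echs1, Kxd1 and Colgalt1 (0.016, 0.0471 and 0.0584). Each distance rests on 4 libraries in 2 groups.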

How the data were processed

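The authors deposited 1 table of FPKM values for 36445 genes in 4 libraries. STAR (2.4.1a), Picard (2.9.0) and the build GRCm38 appear, without role or order, per the submitters' processing notes; no source used here gives the counting program, annotation release or strand setting. Libraries were made from polyadenylated RNA, per the labels' protocols. Coordinates and exonic lengths came from GENCODE M21 (GRCm38), which held 36379 of the gene IDs. Depth was estimated from the smallest step of FPKM times exonic length. Of values under 100 reads, 63.1% to 65.1% then lay within 0.02 of a whole number, as did the values of 3 of the 8 genes. Depths for other genes are approximate, and counting error is the only error they cover.

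The test was limma 3.58.1 under R 4.3.3, two-sided, with trended eBayes moderation of log2(FPKM + 1), and p-values were adjusted over the 11644 genes that reached 1 FPKM in 2 or more libraries. The fit was tested on simulated data. Log2 differences understate the change of low genes, and ratios are of mean FPKM. The members and lists were chosen with earlier results of these data known. Named genes were the 8 members, up to 3 called genes per direction of each list, Rps27, and the 3 nearest profiles of Trp53, Mdm2 and Cdkn1a. Cdkn2a, Ccng2, Cdkn1c, Perp and Pmaip1 were named after their values were seen. Of the 137 list symbols other than the members, 134 were in the table, and the other 3 were second names of genes listed under another symbol. The 15 alternatives were pseudocounts of 0.1 and 0.5, no filter, a minimum mean of 5 FPKM, quantile normalization, median-ratio scaling, removal of 364 mitochondrial and ribosomal protein genes, eBayes without trend or robust, a replicate block, subtraction of the trend with gene span, and each library left out. Promoter sequences are from RefSeq (GRCm38.p6), matched for 8 of 8 genes.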

Additional observations from a re-analysis of the deposited data

How the results depend on the processing

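Trp53, Mdm4 and Rps27l kept their direction and stayed past the threshold in all 15 alternative settings, and Ccng1 stayed short of it in all 15. The median log2 difference of all tested genes was -0.10, and median-ratio scaling and quantile normalization moved it to 0.01 and 0.02. Leaving out 1 library, the log2 difference ranged from 1.01 to 1.13 for Mdm2, -0.98 to -0.55 for Cdkn1a, -1.01 to -0.48 for Usp7 and 0.25 to 0.78 for Ppm1d. With no filter on low values Cdkn1a (-0.77, adjusted p = 0.073) and Usp7 (-0.75, adjusted p = 0.102) no longer passed, which left 1 member lower, and more genes enter that adjustment. Usp7 was also lost, at -0.24, with the gene span trend removed. Ppm1d passed at 0.63 with median-ratio scaling, 0.73 with quantile normalization and 0.73 with the gene span trend removed. The log2 change of the Mdm2 to Trp53 ratio ranged from -0.71 to 0.06, reversing to 0.057 without PBS replicate 2.

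Over all genes, 2578 were higher and 3628 lower. With 1 library left out the counts ranged from 481 to 4428 higher and from 1311 to 4624 lower, and they were small without a 5-FU library, where the PBS pair alone supplies the error and the lone 5-FU library is assumed to vary like it, and large without a PBS library. At a mean of at least 5 FPKM, where fewer genes were tested, 2158 were lower. With 1 library left out, 2 to 4 members were called higher and 1 to 3 lower. Over the lists without the members, 20 were higher and 37 lower, with 11 higher under no filter, and ranges of 3 to 46 higher and 9 to 55 lower with 1 library left out. The labels do not say whether same-numbered replicates were prepared together. Same-numbered deviations correlated at -0.01 across 11644 genes. The 5-FU pair differed little (median absolute log2 difference 0.07), so that correlation cannot settle the question. The replicate block gave 2484 higher and 3553 lower genes and changed no call among the 8 members.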
